A study of Mus musculus with 6 samples.

Results

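The placental prolactin family and the placental cathepsins were examined in whole mouse embryos at embryonic day 8.5. At this age the embryo lies within its membranes and the uterine lining, next to the forming placenta. The members were the genes whose symbol begins with Prl2 to Prl8, together with Cts3, Cts6, Cts7, Cts8, Ctsj, Ctsm, Ctsq and Ctsr. Where a gene had several probe sets annotated to it alone, the brightest on average over all 6 arrays stood for it. This gave 25 genes, 17 of the prolactin family and 8 cathepsins, out of 18193 genes on the array. The mean level that chose each probe set is a description of the data and is not tested.

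Embryos of genotype Fz2+/+; Fz7-/-, called single knockout here, were compared with embryos of genotype Fz2-/-; Fz7-/-, called double knockout, with 3 arrays in each group. Both groups therefore lacked Fz7, a Frizzled receptor for Wnt ligands that is also written Fzd7, and differed in the related receptor gene Fz2 (Fzd2), and no wild type was used here. All arrays were labelled as embryonic day 8.5, of C57BL6/129 mixed background and of mixed gender. Pooling of embryos, removal of the membranes and the litters behind the replicates were not stated in the sources used here. The p-values thus cover only the spread among these arrays, part of which may be technical.

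The genes of these families lie in clusters on chromosome 13 that expanded in rodents. The prolactin-like hormones are secreted by trophoblast, the outer lineage of the conceptus that builds the placenta, and in some cases by the decidua, the transformed maternal lining of the uterus. They act on the mother, on blood vessels and on immune cells of the implantation site. The placental cathepsins are cysteine proteases related to cathepsin L and are made by trophoblast. Neither family is a known product of the embryo proper, so their transcripts serve as markers of adjacent tissue. In RNA from a whole sample, fewer cells of a type and less RNA per cell cannot be told apart.

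The arrays had near-equal medians (5.79 to 5.82 on the log2 scale) because they had been normalized together. Double knockout replicate 1 correlated with the other arrays across genes at 0.987 to 0.990, whereas the highest correlation of each other array was 0.997 to 0.998. In it 479 genes differed by over 1 log2 unit from the average of the remaining arrays, against 18 to 37 genes in any other array. Fzd2 was lower in the double knockout, with a difference of -2.42 (SE 0.11, n = 3 per group, limma adjusted p = 0.00567), as the labels state. That call ended without single knockout replicate 1 (limma adjusted p = 0.0831), 2 (0.120) or 3 (0.109), and without double knockout replicate 3 (0.0759). The Fzd2 difference itself was -2.49 to -2.30 when each array was left out in turn. The X-inactivation transcript Xist was at 5.84, 12.71 and 5.58 in the single knockout and at 12.46, 5.83 and 12.77 in the double knockout, in order of replicate, so each array was either low or high although all were labelled as mixed. Genotype differences of the members, and counts of direction over all members and over the gene lists, are given with and without double knockout replicate 1.

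No gene of either family passed the test between the genotypes. With double minus single knockout fitted in limma over all 18193 genes, 0 of 25 members reached an adjusted p of 0.05, where 0.0055% of all genes did. Their adjusted p ranged from 0.872 to 0.991, and 0 had an unadjusted p under 0.05, against 4.96% of all genes. The groups overlapped for all 25 members, while 11.4% of all genes had groups that did not overlap, 4.85% with the double knockout above. The differences were above 0 for 17 members, against 46.2% of all genes, and below 0 for 8. Without double knockout replicate 1, 8 of 25 were above 0, against 46.7% of all genes. Their median was 0.054, beside -0.0093 over all genes, and was -0.035 without double knockout replicate 1.

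Most members were dim on every array. The mean level lay below the lower quartile of genes for 21 of 25 members, and only Prl8a2 read above the array median on all 6 arrays. Below the array median on all 6 arrays were 19 of 25 members, beside 33.6% of all genes. In 18 members the highest and lowest arrays differed by 1 log2 unit or less, and these read between 2.99 and 5.35. The 7 members with a larger range were Prl8a2, Prl4a1, Prl7a1, Prl5a1, Prl3c1, Cts7 and Cts8, which is 28% of the members, beside 4.15% of all genes. The member just inside this limit was Prl3c1, with a range of 1.73, and the one just outside was Prl8a9, with a range of 0.78. These 7 genes were therefore picked by their values, and what follows describes them array by array.

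**Figure D1:**
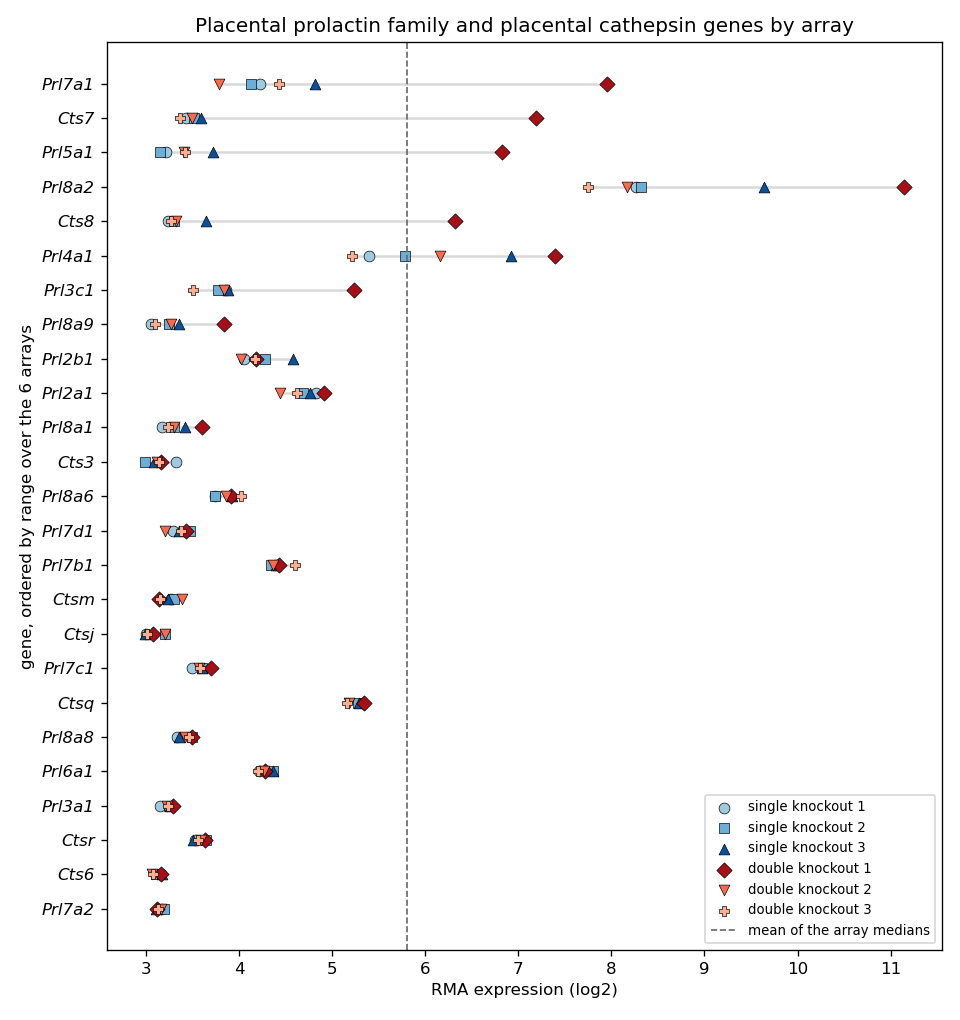
Level of each of the 25 members on each of the 6 arrays, as RMA log2 expression, with genes ordered by their range and the mean of the array medians as a dashed line. Double knockout replicate 1 (dark red diamonds) stands to the right for the 7 members at the top, and single knockout replicate 3 (dark blue triangles) comes next for Prl8a2, at 9.63 against 11.14.

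Prl8a2 was the brightest member. It encodes decidual prolactin-related protein, a hormone first known from the decidua. Its level was 8.26, 8.32 and 9.63 in the single knockout and 11.14, 8.17 and 7.75 in the double knockout, in order of replicate, as in all such lists of values here. An array of each genotype was thus high: double knockout replicate 1 first, single knockout replicate 3 second, and the remaining 4 arrays between 7.75 and 8.32. Double knockout replicate 1 lay 2.72 above the mean of the other 5 arrays, or 6.58-fold, and single knockout replicate 3 lay 1.35 above the mean of the other single knockouts, or 2.54-fold. The genotype difference of 0.28 (SE 0.91, limma adjusted p = 0.963) was smaller than the spread within either group, and it was -0.78 without double knockout replicate 1.

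Prl4a1, also called prolactin-like protein A, is made by trophoblast giant cells and acts on uterine natural killer cells. It read 5.39, 5.79 and 6.92 in the single knockout and 7.39, 6.16 and 5.22 in the double knockout. The same arrays were highest as for Prl8a2. Single knockout replicate 3 lay 1.33 above the mean of the other single knockouts, and double knockout replicate 1 lay 1.70 above the mean of the other double knockouts. The genotype difference was 0.22 (SE 0.61, limma adjusted p = 0.955), and -0.34 without double knockout replicate 1.

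In Prl7a1, Prl5a1, Cts7 and Cts8, double knockout replicate 1 lay over 1 log2 unit above every other array. Single knockout replicate 3 lay less than 1 log2 unit above the other single knockouts for these genes. Prl7a1, listed by RefSeq as prolactin-like protein E or G, is a trophoblast hormone. It read 4.22, 4.12 and 4.82 in the single knockout and 7.95, 3.79 and 4.43 in the double knockout. Double knockout replicate 1 lay 12.8-fold above the mean of the other 5 arrays, and single knockout replicate 3 was the second highest. Those 5 arrays ranged over 1.03 log2 units. Its probe set carries the suffix (_s_at) that the array maker gives to probes shared by more than 1 transcript, so part of its signal may come from a related gene. The remaining Prl7a1 probe sets stayed between 2.91 and 3.32 on all arrays and did not show the same pattern. The genotype difference was 1.00 (SE 1.03, limma adjusted p = 0.890), and -0.28 without double knockout replicate 1.

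Prl5a1, or prolactin-like protein L, lies at the end of the prolactin cluster next to Prl4a1. It read 3.22, 3.15 and 3.72 in the single knockout and 6.83, 3.41 and 3.42 in the double knockout. Double knockout replicate 1 lay 10.9-fold above the mean of the other 5 arrays. Those 5 arrays lay near the floor of the measurement, where order carries little and the fold is understated. The difference was 1.19 (SE 0.91, limma adjusted p = 0.872), and 0.049 without double knockout replicate 1. Prl5a1 was the only member of the 7 whose difference stayed above 0 without that array.

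Cts7 and Cts8, which RefSeq also lists under names of ectoplacental cone sequences (Epcs), are neighbours in the cathepsin cluster. Cts7 read 3.43, 3.52 and 3.59 in the single knockout and 7.19, 3.50 and 3.37 in the double knockout. Cts8 read 3.24, 3.30 and 3.65 in the single knockout and 6.32, 3.33 and 3.27 in the double knockout. For both genes 5 arrays lay near the floor of the measurement, and double knockout replicate 1 lay 13.1-fold (Cts7) and 7.80-fold (Cts8) above their mean. A further probe set of Cts8 read 4.91 in that array and 3.46 to 3.59 in the others, whereas a further probe set of Cts7 read 2.93 to 3.18 on all arrays. The genotype differences were 1.17 (SE 0.99, limma adjusted p = 0.877) for Cts7 and 0.91 (SE 0.80, limma adjusted p = 0.878) for Cts8. Without double knockout replicate 1 they were -0.078 and -0.098.

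Prl3c1, listed by RefSeq under the synonym decidualin, had the smallest range of the 7. It read 3.86, 3.77 and 3.88 in the single knockout and 5.24, 3.84 and 3.51 in the double knockout, a 2.77-fold excess of double knockout replicate 1 over the mean of the other 5 arrays. Single knockout replicate 3 did not stand out for this gene. The difference was 0.36 (SE 0.42, limma adjusted p = 0.901), and -0.16 without double knockout replicate 1.

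Promoter sequences from 250 bases before to 50 bases after the start site were taken from RefSeq (GRCm38.p6) and matched 23 of the 25 members by symbol. Prl8a2 and Prl7b1 were not among them. The neighbours Cts7 (chr13:61358147-61358446, minus strand) and Cts8 (chr13:61255299-61255598, minus strand) are shown because both were high in double knockout replicate 1. Capitals mark their longest identical run, 13 bases that 4 of 32851 promoters (0.0122%) hold on either strand.
Cts7: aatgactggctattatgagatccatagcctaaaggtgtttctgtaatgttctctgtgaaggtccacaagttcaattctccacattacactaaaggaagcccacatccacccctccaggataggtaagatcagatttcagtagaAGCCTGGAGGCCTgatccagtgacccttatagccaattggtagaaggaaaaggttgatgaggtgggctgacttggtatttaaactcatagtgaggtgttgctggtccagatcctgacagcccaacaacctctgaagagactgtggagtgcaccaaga
Cts8: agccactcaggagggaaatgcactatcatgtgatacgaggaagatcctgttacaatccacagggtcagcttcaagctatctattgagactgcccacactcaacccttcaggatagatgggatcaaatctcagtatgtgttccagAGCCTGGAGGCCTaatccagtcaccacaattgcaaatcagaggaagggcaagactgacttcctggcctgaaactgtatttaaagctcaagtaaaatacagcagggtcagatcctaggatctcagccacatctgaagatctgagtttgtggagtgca
Aligned end to end, these promoters were 59.7% identical, above the median of all 28 pairs of cathepsin promoters (48.9% to 89.8%, median 56.2%). The most alike pair was Cts3 and Ctsm, at 89.8%, and both of those genes read 2.99 to 3.39 on every array.

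Prl4a1 (chr13:28015962-28016261, plus strand) and Prl5a1 (chr13:28142234-28142533, plus strand) are shown because they are neighbours that were both highest in double knockout replicate 1, while only Prl4a1 lay over 1 log2 unit higher in single knockout replicate 3 than in the other single knockouts. Capitals mark their longest identical run, 13 bases that ended 3 bases before the start site in both genes. No other promoter among the 32851 held this run.
Prl4a1: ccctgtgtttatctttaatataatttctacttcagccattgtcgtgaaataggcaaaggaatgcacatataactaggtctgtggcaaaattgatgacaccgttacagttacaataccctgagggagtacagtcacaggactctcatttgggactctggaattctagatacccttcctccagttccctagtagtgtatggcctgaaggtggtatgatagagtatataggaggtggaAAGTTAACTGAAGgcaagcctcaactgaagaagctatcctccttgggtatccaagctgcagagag
Prl5a1: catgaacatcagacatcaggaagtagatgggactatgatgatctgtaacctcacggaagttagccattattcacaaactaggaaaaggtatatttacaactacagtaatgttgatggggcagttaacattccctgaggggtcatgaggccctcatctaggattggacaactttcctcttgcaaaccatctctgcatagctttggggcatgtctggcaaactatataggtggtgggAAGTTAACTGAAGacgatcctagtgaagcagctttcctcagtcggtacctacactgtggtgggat
These promoters were 54.7% identical, beside a median of 51.9% over 105 pairs of prolactin promoters.

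Prl7a1 (chr13:27642444-27642743, minus strand) and Prl7a2 (chr13:27667987-27668286, minus strand) are also neighbours, and their promoters were 75.7% identical. Prl7a1 was high in double knockout replicate 1, whereas Prl7a2 read 3.11 to 3.19 on all 6 arrays. Capitals mark matches to a GATA motif (AGATAA) or an AP-1 motif (TGANTCA), which are bound by GATA factors and by Fos and Jun proteins, on either strand.
Prl7a1: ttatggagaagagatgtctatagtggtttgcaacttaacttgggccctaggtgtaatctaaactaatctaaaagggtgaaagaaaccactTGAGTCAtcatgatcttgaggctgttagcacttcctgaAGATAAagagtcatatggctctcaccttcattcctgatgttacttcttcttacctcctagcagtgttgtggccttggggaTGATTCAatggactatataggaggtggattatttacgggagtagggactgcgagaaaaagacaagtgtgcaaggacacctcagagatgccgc
Prl7a2: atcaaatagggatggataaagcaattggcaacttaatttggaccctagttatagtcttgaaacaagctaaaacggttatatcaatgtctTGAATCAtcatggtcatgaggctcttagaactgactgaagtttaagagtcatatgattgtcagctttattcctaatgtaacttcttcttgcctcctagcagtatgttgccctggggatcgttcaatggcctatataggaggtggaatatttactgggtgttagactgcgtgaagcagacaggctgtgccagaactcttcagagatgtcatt
The Prl7a1 window held 1 GATA match and 2 AP-1 matches, and the Prl7a2 window held 1 AP-1 match. No matches overlapped. At the start site listed first for each of the 23 members with a promoter, 7 held the GATA motif, 5 the AP-1 motif, 6 a TATA box (TATAAA) and 1 the AP-2 motif (GCCNNNGGC), each searched on both strands. Among 27025 genes the shares at the first listed start were 11.4%, 7.93%, 14.2% and 16.5%. With every listed start counted, 8 members held the GATA motif, beside 12.7% of genes, and the counts of the other motifs in members were the same. The Cts7, Cts8 and Prl5a1 windows held none of the 4 motifs, and the Prl4a1 window held 1 GATA match. A match describes letters in the window and is not a shown binding site.

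The 12 remaining prolactin genes stayed within a narrow band. They included Prl7d1, or proliferin-related protein, an inhibitor of vessel growth, at 3.21 to 3.47, and Prl6a1, a decidual and trophoblast hormone, at 4.20 to 4.37. Prl8a9 and Prl8a1, which encode C-type prolactin-like proteins, were highest in double knockout replicate 1 at 3.83 and 3.60, with all other arrays at 3.05 to 3.35 and 3.18 to 3.42. Prl2b1 was highest in single knockout replicate 3 at 4.58, against 4.02 to 4.28 on the others. The genotype differences of the 12 genes ran from -0.17 to 0.18, with a median of 0.043, and 7 were above 0, beside 46.2% of all genes. Without double knockout replicate 1 they ran from -0.23 to 0.14, with a median of -0.020. The 6 remaining cathepsins, Cts3, Cts6, Ctsj, Ctsm, Ctsq and Ctsr, differed by -0.072 to 0.035 between the genotypes. Without double knockout replicate 1 these differences were -0.13 to 0.044. Ctsq, a protease of labyrinth trophoblast, was the brightest of these at 5.16 to 5.35, and the others read between 2.99 and 3.64.

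Along chromosome 13 the high members were not a single block. In the order of the RefSeq annotation, Prl3c1 stood at one end of the measured prolactin genes and Prl4a1 and Prl5a1 at the other. Prl8a2 lay between the quiet genes Prl6a1 and Prl2b1, and Prl7a1 between the quiet genes Prl7b1 and Prl7a2. Cts8 and Cts7 lay side by side, flanked by Cts6 and Ctsm, which did not vary. The gene before Ctsj is Tpbpa, the classic marker of the ectoplacental cone and spongiotrophoblast, and it read 4.26 to 4.67 on all arrays.

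Set against all genes, the family stood high in double knockout replicate 1 more often than in any other array. It was the highest array for 13 of 25 members, 52%, where it was the highest for 25.3% of all genes. The 7 members with a range over 1 log2 unit were among these 13. The others of the 13 were dim, so that their order carries little. In double knockout replicate 1, 7 members lay over 1 log2 unit above the mean of the other 5 arrays, a position held by 1.16% of all genes. Over 1 below were 0 members, beside 1.47% of all genes. The mean over the 25 members, relative to the single knockout mean, was 0.81 in this array and -0.067 and -0.11 in double knockout replicates 2 and 3. These values describe 1 array, and the members are not replicates of it.

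Single knockout replicate 3 was also high for some of these genes. It was the highest single knockout array for 15 of 25 members, beside 28.3% of all genes. It lay over 0.5 log2 units above the mean of the other single knockouts for 4 members, Prl8a2, Prl4a1, Prl7a1 and Prl5a1, beside 0.462% of all genes, and over 1 unit above for Prl8a2 and Prl4a1, beside 0.0934%. It lay 0.12 above for Cts7 and 0.067 above for Prl3c1. Single knockout replicate 3 and double knockout replicate 1 were the 2 highest arrays for 11 of 25 members (44%), against 6.48% of all genes, though most of these members were dim, so that their order carries little. Xist was low in the former and high in the latter.

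**Figure D2:**
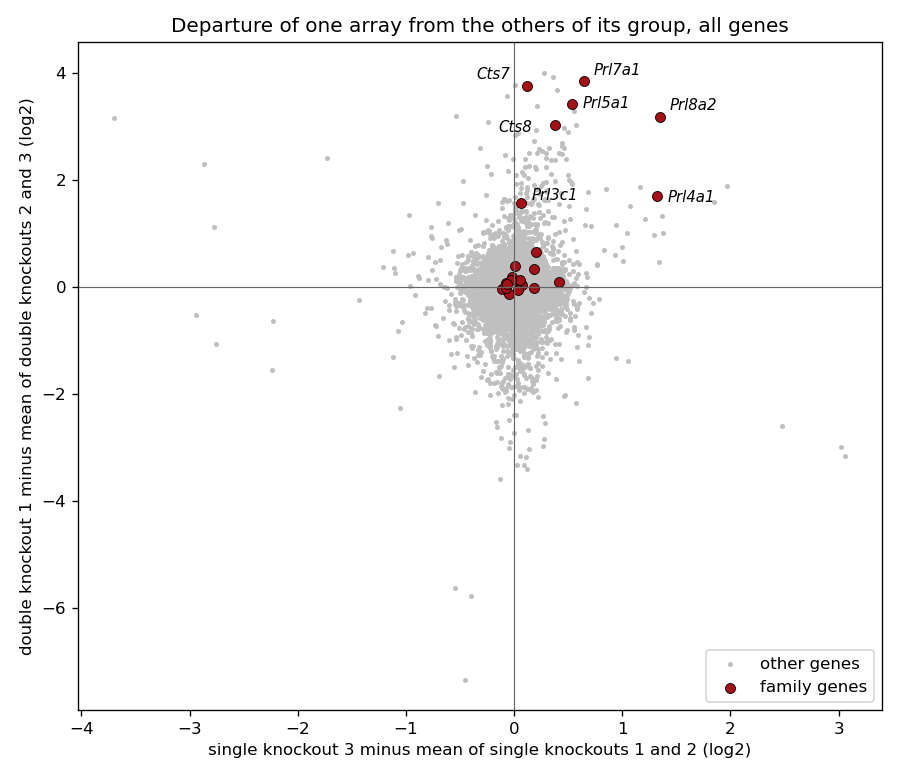
For every gene, single knockout replicate 3 minus the mean of single knockouts 1 and 2 (horizontal, log2) against double knockout replicate 1 minus the mean of double knockouts 2 and 3 (vertical, log2). Prl8a2 (1.35, 3.18) and Prl4a1 (1.33, 1.70) lie high on both axes, whereas Cts7 (0.12, 3.76) and Prl3c1 (0.067, 1.56) lie high on the vertical axis alone.

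Markers of the trophoblast lineages did not all follow the family. None of the genes in the lists that follow passed the test, and the lists were described as counts. For scale, double knockout replicate 1 was the highest array for 25.3% of all genes. It lay over 1 log2 unit above the mean of the other 5 arrays for 1.16% of all genes. Of 10 trophoblast stem cell and chorion genes, 6 were higher and 4 lower in the double knockout (4 and 6 without double knockout replicate 1), 5 were highest in double knockout replicate 1, and only the caudal factor gene Cdx2 lay over 1 log2 unit above the mean of the other arrays there, by 1.05, with those arrays at 8.69 to 9.26. Cdx2 is also a gene of the embryo's tail. Tead4 (difference 0.33) and Gata3 (-0.20) had the smallest unadjusted p in this list, both with limma adjusted p = 0.872. The groups did not overlap for these genes nor for Eomes, Ets2 and Sox21, which were named after their values were seen. Tead4, Eomes and Sox21 were higher in the double knockout, and Gata3 and Ets2 lower. Of all genes, 11.4% had groups that did not overlap. Genes of other lists, such as Ctsl, Ctsa, Wnt4 and Lrp2, were among them. The summed linear signal of the list was 3687 to 3725 in the single knockout and 3464 to 3982 in the double knockout.

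Of 11 genes of the ectoplacental cone and spongiotrophoblast, 8 were higher and 3 lower in the double knockout, with or without double knockout replicate 1. In this list 0 lay over 1 log2 unit higher in double knockout replicate 1, and 1, Pcdh12, lay lower by 1.05. Tpbpa, Tpbpb and Ascl2, which define these layers, were below the array medians on every array. Single knockout replicate 3 stood apart here in the opposite direction. The placental growth gene Plac1 read 10.26, 9.90 and 7.85 in the single knockout and 9.42, 9.83 and 10.30 in the double knockout. Phlda2 and Nrk were also lowest in single knockout replicate 3, by 1.11 and 1.12 below the mean of the other single knockouts. Rhox6 was 1.01 above that mean. Phlda2 (0.77) and Prdm1 (0.16) had the smallest unadjusted p, at limma adjusted p = 0.872. Summed, the list read 3581 to 8545 in the single and 7455 to 10142 in the double knockout.

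Of 10 further giant cell genes, 7 were higher and 3 lower in the double knockout, or 4 and 6 without double knockout replicate 1. That array was the highest for 7, beside 25.3% of all genes, but for 0 by over 1 log2 unit. Hand1, a master factor of giant cells that heart and allantois also use, read 6.84 to 7.23. Adm, a vessel-dilating peptide gene, was highest in that array, with the others at 6.66 to 7.52, and Bhlhe40 was lowest there at 6.20 against 6.43 to 7.24. Ctsl (0.23) and Podxl (0.32) had the smallest unadjusted p, at adjusted p = 0.872. The summed signal was 9736 to 10338 in the single knockout, and 14400 in double knockout replicate 1 against 10175 and 10651 in the others of its group. Ctsl (13.07 in that array) and Podxl (12.03), the brightest genes, weigh most in this sum. Ctsl is also counted among the widely expressed cathepsins below. Of 7 labyrinth genes measured of 10, 4 were higher and 3 lower, or 2 and 5 without double knockout replicate 1, and 5 were highest in that array. Ly6e and Epha4 differed by 0.25 and 0.21, at adjusted p = 0.872, and the summed signal was 8601 to 9096 in the single and 8659 to 13477 in the double knockout. The brightest labyrinth gene, Slc16a1, read 13.54 in double knockout replicate 1 and weighs most in that sum.

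Most genes of other placental families stayed low. Of 25 pregnancy-specific glycoprotein, Ceacam, serpin and Ctla2 genes, 18 were measured. In the double knockout 12 were higher and 6 lower (8 and 10 without double knockout replicate 1). On every array 14 lay below the array medians, beside 33.6% of all genes. Ctla2a, a cathepsin inhibitor, had the same highest arrays as Prl8a2, at 8.87, 9.21 and 9.87 in the single and 9.91, 9.24 and 9.21 in the double knockout. Psg17 (-0.16) and Psg19 (0.15) had the smallest unadjusted p, at adjusted p = 0.872. Summed over the list, the signal was 939 to 1479 in the single and 1088 to 1523 in the double knockout. Prolactin itself read 4.71 to 4.94. Of 8 measured genes of prolactin, growth hormone and their signalling, 3 were higher and 5 lower in the double knockout (1 and 7 without double knockout replicate 1), with Ghr at -0.26 and Stat5b at -0.18, both at adjusted p = 0.872, and the summed signal was 2046 to 2095 in the single and 1738 to 2078 in the double knockout.

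Some widely expressed cathepsins were high in the same array. Of 17 genes of these proteases and their inhibitors, 13 were higher and 4 lower in the double knockout, with or without double knockout replicate 1. In this list 11 were highest in double knockout replicate 1 and 4 lay over 1 log2 unit above the others there. Ctsh read 10.69 in it against 8.03 to 8.27, Ctsc 10.78 against 8.37 to 8.46, the asparagine-specific protease gene Lgmn 10.90, or 1.81 above the mean of the other 5 arrays, and Ctsb 10.76 against 9.61 to 9.70. In these 4 genes single knockout replicate 3 lay within 0.14 of the mean of the other single knockouts. In Ctse it lay 0.66 above that mean, and double knockout replicate 1 lay lower than the mean of the other 5 arrays, by -0.39. Ctsa (0.19) and Ctsw (-0.29) had the smallest unadjusted p, at limma adjusted p = 0.872. The summed signal was 18092 to 18440 in the single and 18630 to 28272 in the double knockout.

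Genes of maternal tissue were also listed. Prl8a2 was picked for its range, so the spread of these genes was not set against it. Several decidual stroma genes were bright on all arrays, such as Igfbp4 (11.98 to 12.57) and Hand2 (9.91 to 10.28). Whether the signal of such genes was maternal cannot be told from these arrays. Of 11 decidual stroma genes measured of 13, 5 were higher and 6 lower in the double knockout (4 and 7 without double knockout replicate 1), and in that array none differed by over 1 log2 unit from the average of the others. The progesterone receptor gene Pgr came closest, at 6.72 against 5.61 to 5.92, with single knockout replicate 3 second, and Hoxa10 was lowest in single knockout replicate 3 at 5.99. Wnt4 (-0.23) and Cryab (-0.26) had the smallest unadjusted p, at adjusted p = 0.872. The list's summed signal was 8621 to 9368 in the single and 7342 to 8402 in the double knockout, lowest in double knockout replicate 1. Igfbp4, the brightest gene, weighs most in this sum and was also lowest in that array. The mean over the genes there was 0.055 above the single knockout mean. All 14 genes of uterine natural killer cells and leukocytes were below the array medians on every array, beside 33.6% of all genes. Of the 14, 4 were higher and 10 lower in the double knockout with or without double knockout replicate 1. The list held the perforin gene Prf1 at 5.50 to 5.77 and Ptprc, the pan-leukocyte antigen CD45, at 3.29 to 3.61. Nkg7 and Cd52 differed by 0.17 and 0.13, at adjusted p = 0.872, and the summed signal was 266 to 295 in the single and 272 to 289 in the double knockout.

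Visceral endoderm genes, which the yolk sac expresses, were high in the same array. All 17 measured of 19 were higher in the double knockout and highest in double knockout replicate 1, with 8 higher and 9 lower without that array. In it 16 lay over 1 log2 unit above the mean of the other 5 arrays. Apob read 11.29 against 6.95 to 7.79, Cubn 11.58 against 7.85 to 8.56, Apoa4 10.11 against 6.38 to 6.80, and Apoa1 12.47 against 9.31 to 10.03. Apoc2 and Amn differed in the same way, by 3.29 and 2.92 from the mean of the other 5 arrays. In single knockout replicate 3, 3 of 17 lay over 0.5 above the mean of the other single knockouts. Lrp2 (0.51) and Fgb (0.73) had the smallest unadjusted p, at limma adjusted p = 0.872. The summed signal was 9595 to 12533 in the single knockout, and 49857 in double knockout replicate 1 against 9613 and 9887 in the others of its group. Of 11 parietal endoderm genes, 3 were higher and 8 lower in the double knockout, or 6 and 5 without double knockout replicate 1. Thbd (0.37) and Fst (0.22) had the smallest unadjusted p, at adjusted p = 0.872, and Nid1 was lowest in double knockout replicate 1 at 8.64 against 9.56 to 9.84. The summed signal was 12013 to 12582 in the single and 10430 to 12526 in the double knockout. The part that attached placental, decidual or yolk sac tissue, or a difference in developmental stage, plays in the levels of the 25 members was not tested.

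**Figure D3:**
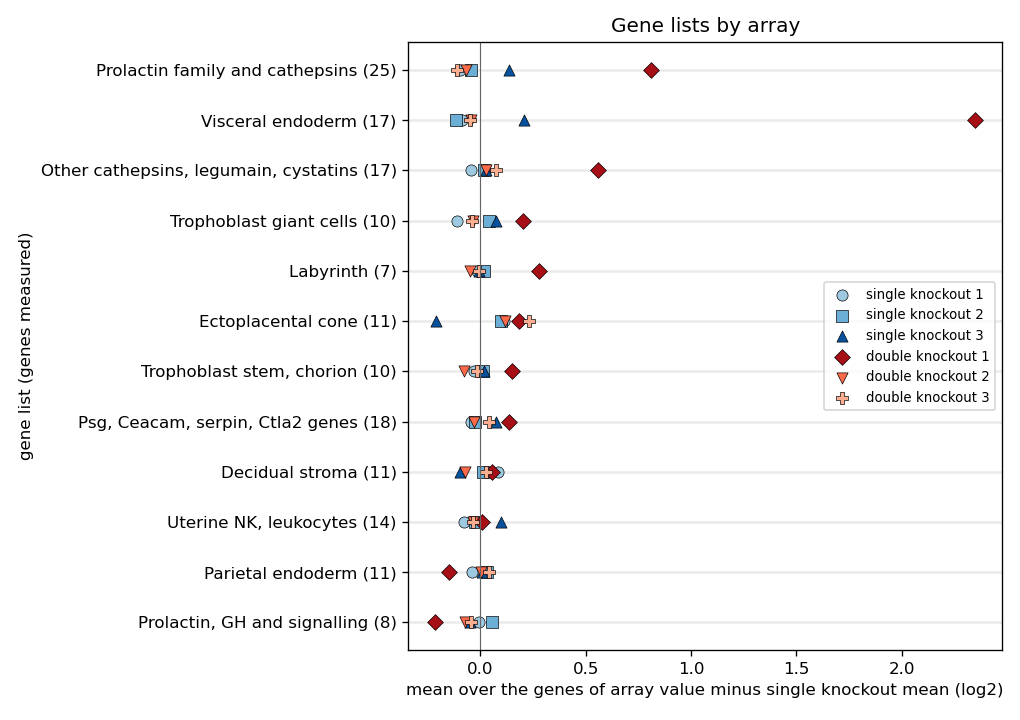
Mean over the genes of each list of the array value minus the single knockout mean (log2), with a symbol per array. Double knockout replicate 1 lies at 0.81 for the 25 members and at 2.35 for the visceral endoderm genes, while single knockout replicate 3 lies at 0.14 and 0.20 for these lists and at -0.21 for the ectoplacental cone genes.

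Outside the family, the genes whose profile over the 6 arrays was most like the mean of the members included several secreted by the visceral endoderm, such as Apoa1, Afp, Rbp4 and Ttr. Among 748 genes with a range over 1 log2 unit, the 10 highest Pearson correlations were 0.989 to 0.998 and belonged to Apoa1, Afp, Rbp4, Klf9, Htra1, Ttr, Cldn2, Cubn, Folr1 and 2610528J11Rik. These 6-point correlations rest mainly on double knockout replicate 1. Over the 5 arrays without it, among 1301 genes with a range over 0.5, the 10 most alike (0.967 to 0.999) were Sprr2h, Msh4, Sfrp4, Erv3, Fmn1, Fabp4, Apoa1, S100a4, Aoc1 and A2m, and there they rest mainly on single knockout replicate 3. Apoa1 was the only gene named in both sets. Fabp4, a fatty acid carrier, read 4.99, 5.01 and 6.97 in the single and 6.76, 5.02 and 4.70 in the double knockout. A2m, a secreted protease inhibitor, lay 1.16 above the mean of the other single knockouts in single knockout replicate 3. In double knockout replicate 1 it lay 1.63 above the mean of the other 5 arrays. The high arrays of both genes were those of Prl8a2.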

How the data were processed

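RNA from 6 whole-embryo samples was labelled with biotin and hybridised to single-colour Affymetrix arrays, per the labels. Groups and replicate numbers came from the sample titles. The authors' deposited table holds log2 expression of 45101 probe sets, for which the submitters' processing notes name RMA. This method corrects background, equalises the distributions of the arrays and summarises probes. It compresses differences near background, so the fold of dim genes is understated. RMA version: not given in the sources used here. The number of arrays limits the precision.

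By the platform annotation, 34945 probe sets carried 1 symbol and were kept, with the brightest per gene. Those with several symbols (932), with none listed (9160) and the 64 controls were left out. All 25 members matched RefSeq by gene identifier, with 0 symbols updated, and 5 had several probe sets.

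Double minus single knockout was fitted for 18193 genes with limma 3.58.1 (R 4.3.3; lmFit, eBayes, two-sided) without a filter on low values, with Benjamini-Hochberg adjustment and a threshold of 0.05. The scripts were tested on simulated data. Promoters were aligned with Biopython 1.88.

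The members and the 11 gene lists (149 entries) were chosen with earlier results of these data known. Members with a range over 1 log2 unit were given array by array. From each list came the genes past the threshold, or the 2 lowest by unadjusted p if none passed, plus up to 6 with a range over 1. The 10 most alike genes came by Pearson correlation. Prl6a1, Prl7d1, Prl8a1, Prl8a9, Prl2b1, Tpbpa, Tpbpb, Ascl2, Hand1, Ctse, Eomes, Ets2, Sox21, Prf1 and Ptprc and the choice of promoter pairs were named after their values were seen. Summed signals are sums of 2 to the power of the log2 values, so the brightest genes of a list weigh most in them. Alternatives were the replicate number as a block, a trend with robust moderation, leaving out dim genes, the mean of probe sets, all probe sets, further scaling, array weights, a threshold of 0.1 and leaving out each array. Leaving out single knockout replicate 3 and double knockout replicate 1 together was added after the data were seen.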

Additional observations from a re-analysis of the deposited data

Results flagged for a closer look

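A probe set annotated to 4 gene symbols, 3 of them of the Prl2 group, was left out of the comparison because no single gene can be named from it. Its level was 6.34, 6.92 and 8.68 in the single knockout and 9.40, 7.04 and 6.77 in the double knockout, in order of replicate. Its highest double knockout array was thus above the highest single knockout array, and the high arrays were those of Prl8a2 and Prl4a1. A second such probe set, with 5 symbols, read 2.97 to 3.41 on all arrays.

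The second probe set of Cts8 was also not used in the comparison. It read 4.91 in double knockout replicate 1, above the highest single knockout array at 3.59, and 3.59 and 3.46 in the remaining double knockout arrays.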

How the results depend on the processing

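The count of family genes past the threshold was 0 under all 16 alternatives, with the smallest adjusted p at 0.709. With the replicate number as a block, 0 family genes passed and their median difference was 0.054. That block changed no call, and the numbers were not taken as pairs, since same-numbered arrays' deviations from their group means correlated at 0.094, -0.037 and -0.13. The count over all genes, 1 with all arrays (Fzd2), was 0 with the mean of the probe sets and 0 to 1 when each array was left out. The median difference of the family was 0.28 with dim genes left out, where Prl8a2 alone remained, and -0.035 to 0.077 when each array was left out. Array weights turned Prl3c1 (-0.011), Prl4a1 (-0.29) and Prl8a2 (-0.58), and lowered Prl7a1 to 0.038, Cts8 to 0.16, Cts7 to 0.27 and Prl5a1 to 0.34. The mean of the probe sets gave 0.34 for Prl7a1 and 0.61 for Cts7. Leaving out each array gave -0.078 to 1.83 for Cts7, -0.098 to 1.43 for Cts8, -0.16 to 0.70 for Prl3c1, -0.34 to 0.74 for Prl4a1, -0.28 to 1.80 for Prl7a1, -0.78 to 0.92 for Prl8a2 and 0.049 to 1.76 for Prl5a1. The values below 0 came without double knockout replicate 1, and for Prl4a1 also without single knockout replicate 1 (-0.096). Without single knockout replicate 3 and double knockout replicate 1 together, Cts7 was -0.040, Prl3c1 -0.14, Prl7a1 -0.061 and Prl8a2 -0.33, while Cts8 (0.027), Prl4a1 (0.098) and Prl5a1 (0.23) stayed above 0. Beyond the construction of these settings, the cause was not tested. Levels near background and 3 arrays per group limit what could be seen.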

Other observations

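In all, 16 of 18193 genes read over 0.5 log2 units higher in both single knockout replicate 3 and double knockout replicate 1 than in the highest of the other 4 arrays, and 2 of them, Prl8a2 and Prl4a1, were members. The other 14, picked by their values, were A2m, Ampd3, Aoc1, Ctla2a, Cyp11a1, Fabp4, Gatm, Lgals3, Mt4, Mustn1, Rnase4, S100a4, S100a6 and Tfcp2l1. Lgals3, which encodes the sugar-binding protein galectin-3, read 5.48, 5.08 and 7.12 in the single and 7.34, 5.67 and 5.82 in the double knockout. Cyp11a1, the enzyme that starts steroid hormone synthesis, read 5.02, 5.21 and 6.41 in the single and 6.24, 5.26 and 5.27 in the double knockout. Gatm, the enzyme gene of the opening step of creatine synthesis, read 7.49, 7.68 and 8.44 in the single and 9.04, 7.25 and 7.15 in the double knockout.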
